A study of Mus musculus with 248 samples.

Results

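The genes of oxidative phosphorylation were followed in the peripheral blood of mice that develop acute myeloid leukemia from the fusion gene Cbfb-MYH11 (arm CM) and of their littermate controls (arm Ctrl). Members were the gene symbols that start with Nduf, Uqcr, Cox4 to Cox8, Atp5, mt-Nd, mt-Co, mt-Cyt or mt-Atp, together with Sdha to Sdhd, without names that mark pseudogenes. There were 93 members among 18883 genes in either of the tables analysed. All 93 were in the training table, 86 of the nuclear and 7 of the mitochondrial genome, and 82 nuclear and 7 mitochondrial members were in the validation table. A further 12 symbols of the name table that match the rule were not analysed here. The 7 mitochondrial members were mt-Nd1, mt-Nd2, mt-Nd4, mt-Nd5, mt-Nd6, mt-Cytb and mt-Co1.

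Oxidative phosphorylation is the work of the respiratory chain and the ATP synthase in the inner mitochondrial membrane. Complexes I and II take electrons from NADH and succinate, complexes III and IV pass them on to oxygen while protons are pumped, and complex V uses the proton gradient to make ATP. A few core subunits are encoded by mitochondrial DNA and made inside the organelle, and all other subunits are encoded in the nucleus. All complexes except complex II, whose subunits are all nuclear, therefore need both genomes. Growing cells and leukemic blasts carry many mitochondria, erythroid precursors lose theirs as they mature, and lymphocytes at rest keep few.

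CM mice were Cbfb+/56M/Mx1-Cre animals of strain C57BL/6, and Ctrl mice were littermates that were wild-type or carried either Cbfb+/56M or Mx1-Cre. Both arms received 7 doses of poly(I:C) at 14 mg/kg from an age of 4 to 8 weeks, which switches on Cre in interferon-responsive cells, blood-forming cells among them. T0 was the bleed before induction, T1 to T10 were months after it, and L was overt leukemia, which the labels define by more than 20% cKit+ blasts. In the training cohort 7 CM mice gave 55 libraries and 7 Ctrl mice gave 77. In the validation cohort 13 CM mice gave 68 libraries and 8 Ctrl mice gave 48. Bulk total RNA, labelled as blood mononuclear cells, was sequenced to 16 to 36.3 M reads per training library and 8.68 to 34.4 M reads per validation library. Values are log2 CPM, the log2 of a gene's reads per 1 M reads of the library, and each group holds separate mice.

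Some libraries stood apart or went against their labels. The row for the knock-in transcript averaged 3.30 to 4.61 log2 CPM in 12 validation CM mice and -3.67 in CM mouse 2700. It averaged 3.09 to 3.17 in the 2 validation Ctrl mice of genotype code HW and -6.30 to -4.07 in the 4 of code CW. In the training cohort the row was low throughout, with -3.68 to -1.82 in the 7 CM mice, -4.96 to -4.32 in the 2 Ctrl mice of code HW and -6.52 in the 4 of code CW, so mouse 2700 stands apart only from the validation CM mice. In 1 of 248 libraries the X- and Y-linked markers went against the labelled sex. That library was the T0 bleed of CM mouse 2731, so results with and without mice 2700 and 2731 are given where they enter. The last training library of CM mouse 3368 had a Kit level of 2.34 log2 CPM, whereas the last libraries of the other 6 CM mice had 6.61 to 9.45. Red cell RNA varied widely: the 4 globin genes took 4.22 to 38.5% of reads in training Ctrl T10 libraries and 0.473 to 1.78% in Ctrl T0 libraries. Kit encodes the receptor that marks progenitors and blasts. Markers of B, T and NK cells were detected in both cohorts, and so were those of other blood cells. Summed neutrophil markers, for example, were 2076 to 5154 CPM in training Ctrl T0 libraries.

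In blood drawn before induction the most abundant nuclear members per transcript length were shared by the cohorts. In training Ctrl T0 libraries Cox4i1, a regulatory subunit of complex IV, had 203 ± 17 RPKM (reads per kilobase of transcript and per 1 M reads, SD, n = 7). Atp5b, the catalytic beta subunit of complex V, had 170 ± 6.61 RPKM, and Atp5e, Uqcrh and Atp5a1 followed with 139.5, 129.3 and 114.6 RPKM. The same 5 genes led the validation Ctrl T0 libraries, with 278 RPKM for Atp5b, 275 for Atp5e, 238 for Cox4i1, 225 for Uqcrh and 180 for Atp5a1 (n = 6). The order of Atp5b and Atp5e there lay within their spread of 20.2 and 59.97 RPKM (SD). Of the mitochondrial members, mt-Co1, a catalytic core subunit of complex IV, was highest with 1012 ± 147 RPKM in training and 1322 ± 220 RPKM in validation libraries, and mt-Nd6 had 110 and 83.6 RPKM. Training libraries were depleted of ribosomal RNA, and part of the validation libraries were prepared without strand information, so levels were compared within a cohort.

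Isoform pairs were far apart at baseline. On the per-length scale in training Ctrl T0 libraries, Cox6b1 had 111.1 RPKM while Cox6b2, the isoform best known from testis, had 3.34 RPKM. Cox6a1 had 93.3 and its muscle isoform Cox6a2 had 0.33 RPKM, and Cox7a2 had 34.8 and its muscle isoform Cox7a1 had 0.88 RPKM. Cox5a and Cox5b, which are separate subunits of complex IV, had 47.4 and 39.5 RPKM. Of the 3 genes for subunit c of complex V, Atp5g3 had 55.9, Atp5g2 1.80 and Atp5g1 0.71 RPKM. The longest transcript, used as the length, had 4715 bases for Atp5g1 and 647 for Atp5g2. The order of these 2 genes therefore rests on that choice of length. Ndufa4l2, a hypoxia-induced relative of Ndufa4, was lowest with 0.02 RPKM. Many members have processed pseudogenes, and mitochondrial genes have nuclear copies, so levels of both are uncertain where the counting split reads between copies. mt-Nd6 lies opposite the transcripts of the other strand, and in unstranded libraries (validation T0, T1 and L) reads of the strands cannot be told apart.

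Before induction no member passed the test between the arms. At T0, 0 of 93 members passed the test in the training cohort, where 0.0054% of all genes did, and 0 of 89 in the validation cohort, where 0% did. Each test was limma with sex as a covariate and Benjamini-Hochberg adjustment over all genes of the table, at an adjusted p under 0.05. Without adjustment 4 nuclear training members and 2 nuclear validation members had p under 0.05, and voom on the recovered reads also called 0. In training Ctrl mice, T1 against T0 also gave 0 called members with 0% of all genes called, 2 nuclear members with an unadjusted p under 0.05, and 0 calls from voom. A month after poly(I:C) without the fusion, no shift of these genes was detectable.

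**Figure D1:**
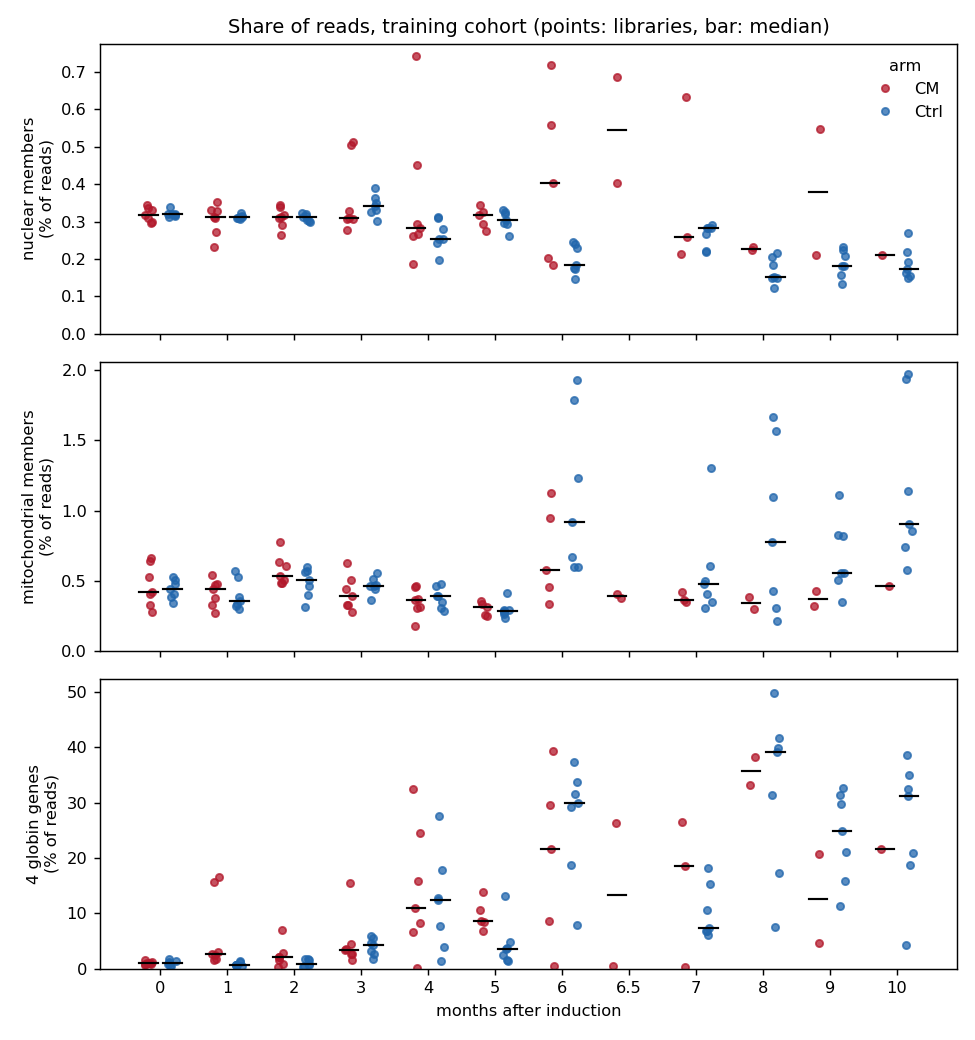
Share of each training library's reads (percent, vertical axes) in the nuclear members, the mitochondrial members and the 4 globin genes, by month after induction (horizontal axis). Each point is a library, with CM left of Ctrl and a bar at the median. The nuclear share of CM libraries spread upward at months 3, 4 and 6, to 0.744% in 1 library, while Ctrl medians were 0.172% at T10 and 0.319% at T0.

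One month after induction, 10 nuclear members, mostly of complexes IV and V, were called higher in validation CM than in Ctrl mice. Called lower were 2 mitochondrial complex I genes and 1 nuclear member. Most of these calls depended on single Ctrl mice, as given below. At T1, with 10 CM and 6 Ctrl mice, 10 of 82 nuclear members (12.2%) were higher in CM mice and 1 lower. Of all genes 7.95% were higher and 20.6% lower. The 2 lower mitochondrial members were 28.6% of the 7, beside the same 20.6% of all genes. Whether these shares of the members differ from those of all genes was not tested. The median log2 difference was 0.15 over nuclear members, -0.59 over mitochondrial members and -0.09 over all genes. By complex, 6 of 13 members of complex IV, 3 of 14 of complex V and 1 of 36 of complex I were higher. The complex I member was Ndufa1, which had the lowest adjusted p of all nuclear members. In bulk blood, fewer cells of a type and less RNA per cell cannot be told apart.

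Ndufa1, an accessory subunit of complex I encoded on the X chromosome (chrX:37187588-37191238, GRCm38), had 4.75, 5.34 and 5.52 log2 CPM as lowest, median and highest in CM T1 libraries, against 4.31, 4.39 and 5.05 in Ctrl T1 libraries. Its values were high in all CM mice but overlapped the highest Ctrl mouse. The log2 difference was 0.70 ± 0.14 (SE) with an adjusted p of 0.0052, and 10 of 10 CM mice lay above the Ctrl mean. Cox6b2 (chr7:4751792-4753094) had 0.60, 1.56 and 2.51 log2 CPM in CM and -0.18, 0.71 and 0.997 in Ctrl libraries, a difference of 0.999 ± 0.27 (adjusted p = 0.0153).

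The other increases at T1 were small. Cox7a2, Cox7b and Atp5k rose by 0.43, 0.42 and 0.42 on the log2 scale, and Cox5a by 0.41. Atp5b, Ndufa4, Cox6b1 and Atp5e rose by 0.34, 0.33, 0.31 and 0.27. Atp5sl, the only nuclear member lower in CM mice at T1, fell by 0.43 (adjusted p = 0.0177). Atp5sl carries an ATP synthase name, but its current name is Dmac2, a factor for the membrane arm of complex I. It was counted apart with Atp5s (Dmac2l) and Cox4nb (Emc8), whose names also do not describe a subunit.

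Of the mitochondrial members, mt-Nd5, a proton-pumping subunit of complex I, had 6.45, 7.22 and 8.06 log2 CPM in CM T1 libraries and 7.55, 8.17 and 8.34 in Ctrl T1 libraries, a difference of -0.86 (adjusted p = 0.0137). mt-Nd6, the member encoded on the light strand, differed by -0.72 (adjusted p = 0.0218). No member had groups without overlap at T1. Blood cell markers moved at T1 too. All 8 measured erythroid markers were higher in CM mice, with summed levels of 1672 to 6118 CPM against 667 to 2189 CPM in Ctrl mice. The 4 globin genes, 7 of 8 platelet markers, 5 of 6 mast cell markers and 5 of 6 progenitor markers were also higher, and 6 of 8 B cell and 6 of 6 NK cell markers were lower. Their part in these differences was not tested.

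The count at T1 rested on few control mice. It was 2 nuclear members without Ctrl mouse 2683, 3 without 2689 or 2692, 7 without 2720 and 21 without 2705. It was 13 without CM mouse 2700, whose knock-in row was low, and 8 without CM mouse 2731. The mitochondrial count was 4 without CM mouse 2700, 2685 or 2686 and 1 without Ctrl mouse 2683, 2689 or 2692. Without any 1 of those 3 Ctrl mice the calls of Atp5b, Atp5e, Atp5k, Cox5a, Cox6b1, Cox7a2, Cox7b, Ndufa4 and mt-Nd6 were lost, and that of Atp5sl was lost without 2683 alone (adjusted p = 0.0559). Atp5k and Cox6b1 were lost without any 1 of 10 mice, with an adjusted p of up to 0.104, while Ndufa1, Cox6b2 and mt-Nd5 kept their calls without each mouse. With all months from 0 to 6 in 1 fit and the mouse as a replicate block, 3 nuclear members and 1 mitochondrial member were called at validation T1. No share of all genes is given beside these recomputed counts, or beside the later counts with a mouse left out. They therefore have no background.

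In the training cohort at T1, 0 of 86 nuclear and 0 of 7 mitochondrial members were called, and 5.02% of all genes were. There 8 nuclear members had an unadjusted p under 0.05, and voom called 0. The count was 3 without CM mouse 3334, 2 without Ctrl mouse 3342 and 1 without CM mouse 3336 or 3341. All 8 platelet and 7 of 8 erythroid markers were higher in training CM mice at that month, as in the validation cohort.

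At T2 in the training cohort, 1 nuclear member was higher and 3 were lower in CM mice, while 5.46% of all genes were higher and 6.25% lower. Atp5sl had 5.35, 5.91 and 6.15 log2 CPM in CM and 6.25, 6.31 and 6.38 in Ctrl libraries as lowest, median and highest. All 7 CM mice lay below all 7 Ctrl mice, with a difference of -0.52 ± 0.13 (adjusted p = 0.0173). Ndufa1 was higher, with 3.81, 4.27 and 4.51 log2 CPM in CM and 3.63, 3.86 and 4.00 in Ctrl libraries (difference 0.45 ± 0.12, adjusted p = 0.0243). A minor subunit c gene, Atp5g2, differed by -0.78 (adjusted p = 0.031) and the muscle isoform Cox6a2 by -2.39 ± 0.71 (adjusted p = 0.0442). Next in order were Ndufa11 at -0.26 and Ndufs7 at -0.29, which did not pass. With all months from 0 to 6 in 1 fit and the mouse as a replicate block, 0 members were called at training T2. In the fit of T2 alone the count was 2 without CM mouse 3334 or any 1 of Ctrl mice 3335, 3339, 3346, 3349 and 3350. Atp5sl kept its call without each mouse. The call of Ndufa1 was lost without CM mouse 3334 or Ctrl mouse 3349 or 3350 (adjusted p up to 0.0638), that of Atp5g2 without any 1 of 6 mice and that of Cox6a2 without any 1 of 9. All 8 T cell markers were higher and 7 of 8 B cell markers lower in CM mice at that month, and their part in these differences was not tested.

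In the later months no member was called between the arms when each month was fitted alone. All months from 0 to 6 were also put in 1 fit with the mouse as a replicate block. There 7 nuclear members were called at training T4 (0 with the preparation code added), 61 at training T6, 2 at validation T2 and 8 at validation T3. The share of all genes called by that fit is not given here, so its counts have no background. Each validation month was 1 sequencing batch, so its arms were compared within a batch. Fitted alone, training T3, T4, T5 and T6 had 0 called members, with 0.632%, 0.0054%, 0% and 0.0162% of all genes called. Validation T2 had 0, with 0.147% of all genes called, and so had T3 to T6, with 0% called. Voom, also month by month, called 0 members in each. At an unadjusted p under 0.05 there were 4, 1, 4 and 17 nuclear members at training T3, T4, T5 and T6, and 5, 11, 4, 2 and 3 at validation T2 to T6, where T2 also had 4 mitochondrial members.

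The mean difference between arms hides CM mice that stood far from the Ctrl mice of the same month while others did not. At training T6 the nuclear members took 0.558, 0.404, 0.719, 0.201 and 0.184% of reads in the 5 CM mice 3334, 3336, 3341, 3368 and 3370, against 0.146, 0.183 and 0.245% as lowest, median and highest in Ctrl mice. Mice 3334, 3336 and 3341 were above every Ctrl mouse, and the other 2 CM mice lay among the Ctrl mice. The Ctrl share had itself fallen by T6. At T0 it was 0.339% in Ctrl mouse 3349 and 0.312 to 0.321% in the others, so the difference at T6 is not a rise in CM mice alone. The median log2 difference over nuclear members at T6 was 0.88, beside 0.13 over all genes and -0.79 over mitochondrial members, and 0 members passed in the fit of T6 alone. All 61 nuclear members called at T6 by the fit over all months were higher, and 55 when the preparation code was added. Those counts have no share of all genes beside them. In validation CM mice the nuclear share reached 0.768% at T2 in mouse 2731 and 0.837% at T3 in mouse 2690. The highest Ctrl shares at those months were 0.436% and 0.452%.

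**Figure D2:**
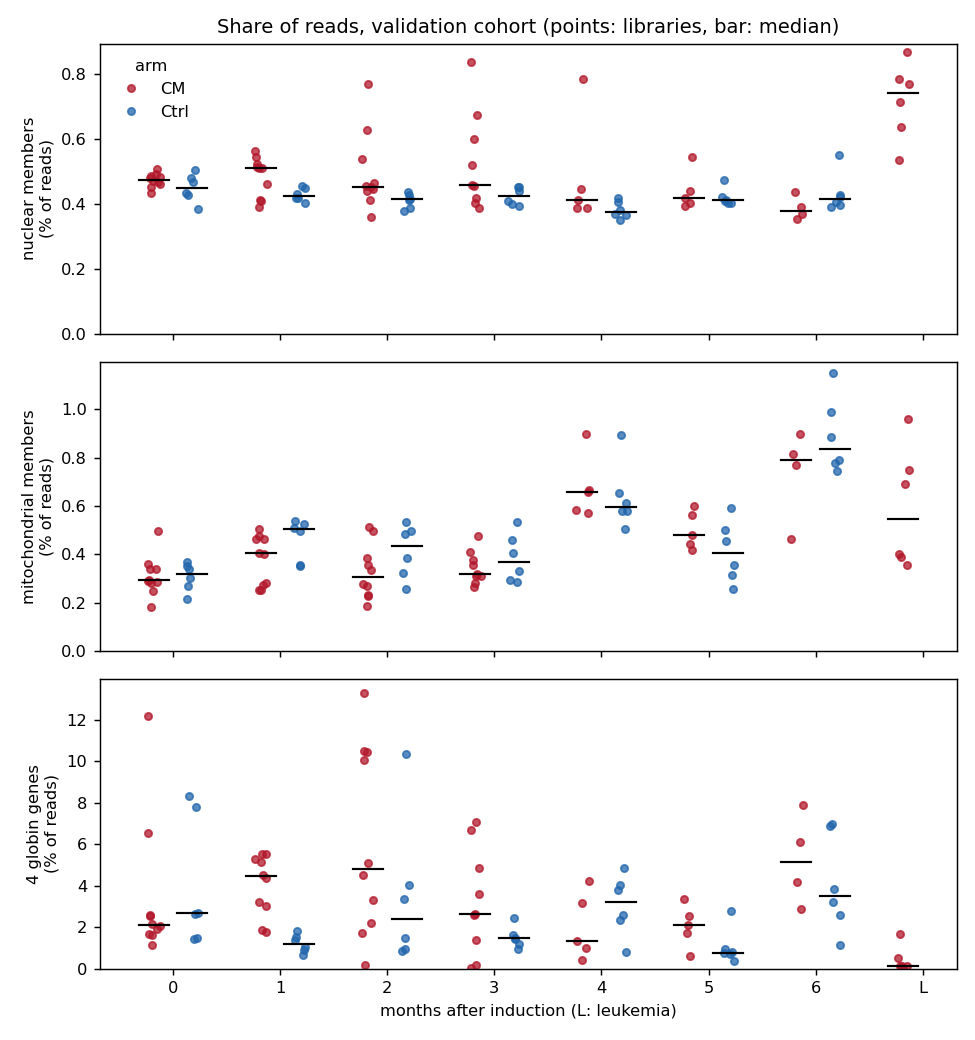
Share of each validation library's reads (percent, vertical axes) in the nuclear members, the mitochondrial members and the 4 globin genes, by month after induction and at leukemia (L) (horizontal axis). Each point is a library, with CM left of Ctrl and a bar at the median. The L libraries reached 0.534 to 0.865% for nuclear members, all above the 0.432 to 0.508% of the same cohort's CM T0 libraries.

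When each training CM mouse was followed to its last bleed, many nuclear members rose and no mitochondrial member passed the test. The last libraries were taken at months 6.5, 7, 4, 6, 4, 10 and 9 in mice 3334, 3336, 3338, 3341, 3357, 3368 and 3370, and each was compared with T0 of the same mouse. Of 86 nuclear members 21 were higher and 2 lower, while 10.1% of all genes were higher and 35.9% lower. The median log2 change was 0.65 over nuclear members, -0.57 over all genes and -0.23 over the 7 mitochondrial members, of which 0 passed. The mitochondrial changes ran from -0.42 for mt-Nd5 to 0.02 for mt-Nd1. Without adjustment 0 of the 7 had p under 0.05, and voom called 0.

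Complex IV held most of the increases. Of its 16 nuclear members 11 rose, whereas 7 of 36 rose in complex I, 2 of 8 in complex III, 1 of 15 in complex V and none of the 4 in complex II. Ndufa1 had 4.99, 5.52 and 5.77 log2 CPM as lowest, median and highest in last libraries and 3.55, 3.78 and 3.95 at T0. All 7 mice rose without overlap, by 1.68 ± 0.25 (adjusted p = 0.000332). Uqcr11, a small subunit of complex III, had 4.28, 5.50 and 5.60 log2 CPM in last libraries and 3.22, 3.62 and 3.78 at T0, a rise of 1.68 ± 0.28 (adjusted p = 0.000645). Cox6a1 had 6.18, 7.25 and 7.66 log2 CPM in last libraries and 5.41, 5.81 and 5.89 at T0, a rise of 1.40 ± 0.26.

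Cox5b, a peripheral complex IV subunit that binds zinc, had 6.25, 6.11, 5.97, 6.39, 5.12, 3.02 and 5.79 log2 CPM in the last libraries of mice 3334, 3336, 3338, 3341, 3357, 3368 and 3370. At T0 of the same mice Cox5b had 4.41, 4.45, 4.43, 4.20, 4.62, 4.46 and 4.52 log2 CPM. It was higher in 6 of 7 mice and lower in mouse 3368, and the mean rise of 1.08 ± 0.40 passed at an adjusted p of 0.0453. Atp5b had 8.45 log2 CPM in the last library of mouse 3368, within the 8.26 to 8.56 at T0, and 9.66 to 10.51 in the last libraries of the other 6 mice. It rose by 1.40 ± 0.27 (adjusted p = 0.00156).

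Other isoforms and subunits also rose. Cox6b2 had 1.48, 2.92 and 4.82 log2 CPM in last libraries and 0.27, 0.78 and 1.28 at T0, a rise of 2.31 ± 0.46 (adjusted p = 0.00188) without overlap. The muscle isoform Cox7a1 had 1.13 log2 CPM as the median of last libraries and -1.54 at T0, a rise of 2.44 ± 0.63 in 6 of 7 mice, beside 0.92 for its partner Cox7a2. Ndufb9 rose by 1.22, Ndufa4 by 1.16, Cox6b1 by 0.98, Cox4i1 by 0.80 and Cox5a by 0.75 on the log2 scale. Atp5a1, the alpha subunit of complex V, changed by 0.75 with an adjusted p of 0.0726 and did not pass. The complex II genes Sdha, Sdhb, Sdhc and Sdhd changed by 0.11, 0.06, 0.73 and 0.81, and none passed.

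Of the 2 nuclear members that fell, Atp5sl had 3.21, 4.29 and 4.59 log2 CPM in last libraries and 4.94, 6.00 and 6.13 at T0, and it fell by 1.76 (adjusted p = 0.000546) in 7 of 7 mice. Ndufab1, the mitochondrial acyl carrier protein that also sits in complex I, fell by 0.91 (adjusted p = 0.0364).

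**Figure D3:**
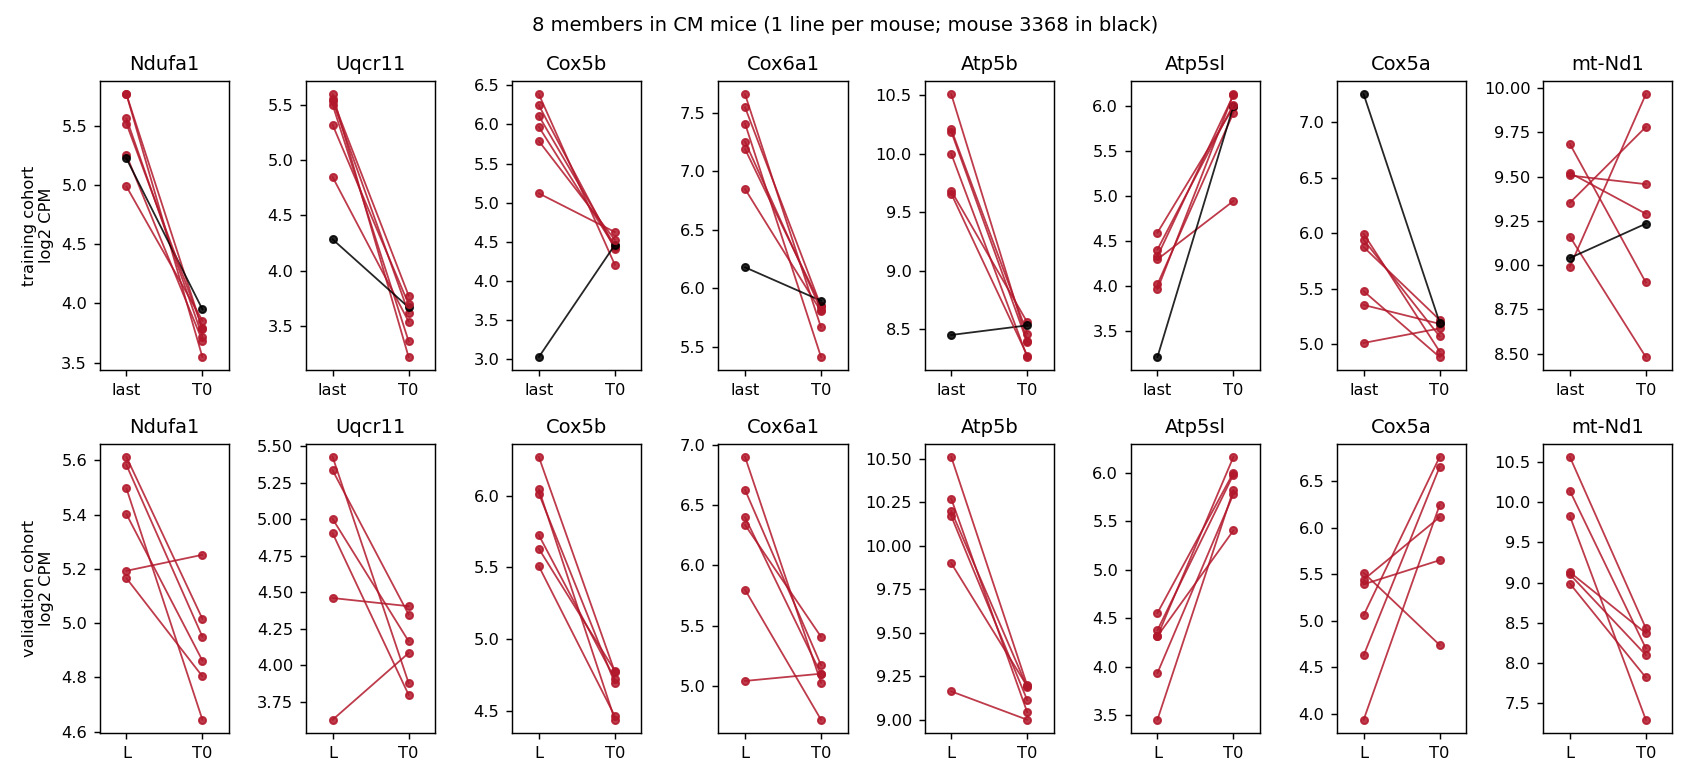
Levels of 8 members (log2 CPM, vertical axes) in each CM mouse, with the last library or L left of T0 (horizontal axis), training cohort above and validation cohort below. Each line is a mouse, and mouse 3368 is drawn in black. In the training cohort Cox5b of mouse 3368 is at 3.02 in its last library while the other 6 mice are at 5.12 to 6.39.

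Mouse 3368 set the size of the training count. Its last library had 21.7% globin reads and a nuclear share of 0.210%, and 14 of 86 nuclear members were above its own T0. The other 6 mice had nuclear shares of 0.452 to 0.744% in their last libraries and 57 to 83 of 86 nuclear members above T0. Without mouse 3368 the count was 65 higher and 2 lower, and it was 13 without mouse 3336 or 3338 and 14 without 3341 or 3370. The calls of Cox5b and Cox4i1 were lost without any 1 of the other 6 mice, with an adjusted p of up to 0.133 and 0.104. Those of Cox5a and Ndufab1 were lost without mouse 3336, 3338, 3341 or 3370, with an adjusted p of up to 0.119 and 0.0928. When libraries were scaled by the median ratio to a common reference in place of the library total, 70 were higher and 1 lower. No share of all genes is given beside these recomputed counts. The median change of all genes was -0.57 under the library total, so a change of 0 there is a rise relative to other genes.

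Cell markers moved with these changes. Between last libraries and T0, 9 of 10 cell cycle markers, 4 of 6 progenitor markers, 5 of 6 mast cell markers and 6 of 8 erythroid markers rose, and 1 progenitor marker fell. All 8 B cell, 8 T cell and 6 NK markers fell. Summed progenitor markers were 72.9 to 1604 CPM in last libraries and 28.7 to 58.4 CPM at T0, and summed B cell markers were 330 to 2165 CPM in last libraries and 2482 to 7671 CPM at T0. The part of these markers in the changes of the members was not tested.

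At leukemia in the validation cohort both nuclear and mitochondrial members rose. L was compared with T0 in the 6 CM mice that had both, 2684, 2690, 2708, 2718, 2719 and 2731. Of 82 nuclear members 42 were higher and 5 lower, and 5 of 7 mitochondrial members were higher, while 31.4% of all genes were higher and 33% lower. The median log2 change was 0.45 over nuclear members, 0.80 over mitochondrial members and -0.04 over all genes. By the labels all L libraries were 1 sequencing run batch and all T0 libraries another, so leukemia and batch cannot be told apart.

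Complex I, the complex with the most members, led by number, with 20 of 36 higher and 1 lower. That was 55.6% higher, beside 51.2% of all nuclear members. Ndufa12, an accessory subunit of its electron-input arm, had 4.05, 4.29 and 4.75 log2 CPM as lowest, median and highest at L and 2.66, 2.72 and 2.79 at T0, a rise of 1.65 ± 0.17. Ndufv2, an iron-sulfur subunit beside the NADH site, had 6.83, 7.03 and 7.27 at L and 5.51, 5.54 and 5.68 at T0, a rise of 1.44 ± 0.09. Both separated L from T0 in all 6 mice. Ndufs6 rose by 1.21 and Ndufb9 by 1.14 on the log2 scale, while Ndufa1 rose by 0.49 (adjusted p = 0.0146) in 5 of 6 mice. Of the 4 assembly factors in the rule, Ndufaf1 and Ndufaf2 rose by 0.77 and 1.11.

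In complex II 3 of 4 members rose. Sdha, Sdhc and Sdhd rose by 0.32, 0.46 and 0.73, and Sdhb, their iron-sulfur partner, changed by 0.06 and did not pass. In complex III 4 of 8 members rose, among them Uqcrb by 1.19 and Uqcr11 by 0.68 (adjusted p = 0.0474).

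In complex IV 5 of 13 members rose and 2 fell. Cox5b had 5.73, 6.05, 6.02, 5.51, 6.27 and 5.63 log2 CPM at L in mice 2684, 2690, 2708, 2718, 2719 and 2731, and 4.72, 4.44, 4.69, 4.46, 4.77 and 4.78 at T0 of the same mice. Every L value was above every T0 value, and Cox5b rose by 1.22 ± 0.14. Cox6a1 rose by 1.10 (adjusted p = 0.00304) and Cox6b1 by 0.82. Cox5a had 4.63, 5.52, 5.39, 3.94, 5.44 and 5.06 log2 CPM at L and 6.66, 4.74, 5.65, 6.25, 6.12 and 6.76 at T0 in the same order of mice. It was lower in 5 of 6 mice, with a mean change of -1.03 ± 0.39 (adjusted p = 0.0436), whereas it rose in last training libraries, and the difference between the cohorts was not tested. Cox7c, a small subunit of complex IV, fell by 1.25, and Cox6b2 changed by -0.64 and did not pass. Globin took 0.120% of reads as the median at L and 2.12% at T0 of all validation CM mice.

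Complex V had 7 of 14 members higher and 1 lower. Its catalytic core genes Atp5a1 and Atp5b rose by 0.88 and 0.91, and its small epsilon subunit Atp5e fell by 1.25 (adjusted p = 0.00341), with 4.37 to 6.30 log2 CPM at L and 6.66 to 7.02 at T0. Ndufa2 of complex I fell by 0.74 (adjusted p = 0.0324). Of the genes counted apart, Atp5sl fell by 1.70 ± 0.17 to 3.46 to 4.56 log2 CPM at L, against 5.41 to 6.17 at T0, without overlap, and Atp5s rose by 1.17.

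Among the mitochondrial members, mt-Nd1, a core subunit of complex I, had 10.14, 8.99, 9.13, 10.56, 9.10 and 9.83 log2 CPM at L in mice 2684, 2690, 2708, 2718, 2719 and 2731. At T0 of the same mice mt-Nd1 had 8.18, 7.82, 8.37, 8.43, 8.10 and 7.30 log2 CPM. It rose in 6 of 6 mice, by 1.59 ± 0.24 (adjusted p = 0.000615), and mt-Co1 rose by 0.96, mt-Nd2 by 0.84, mt-Nd4 by 0.80 and mt-Cytb by 0.73. The other two, mt-Nd5 and mt-Nd6, changed by 0.41 and 0.57 and did not pass. The mitochondrial count was 3 without mouse 2684, 2718 or 2731. The nuclear count ran from 42 to 56 when each mouse was left out, with 42 higher and 3 lower without mouse 2731, whose T0 library went against its label. The falls of Cox5a lost the call without mouse 2684, 2718, 2719 or 2731 (adjusted p up to 0.124) and of Ndufa2 without 2684 or 2731. The rise of Uqcr11 lost it without 2684, 2690, 2708 or 2719 (adjusted p up to 0.129). The rise of mt-Nd4 lost it without 2684, 2690, 2718 or 2731, and that of mt-Cytb without 2684, 2718 or 2731.

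Marker lists moved beside the members. At L, 10 of 10 cell cycle, 5 of 6 progenitor and 5 of 6 mast cell markers rose, and summed progenitor markers were 879 to 3553 CPM at L and 22.4 to 38.0 CPM at T0. All 8 B cell, 8 T cell and 6 NK markers and 7 of 8 platelet markers fell. Mitochondrial ribosomal RNA took 0.263 to 1.202% of reads at L and 0.965 to 1.36% at T0 of these 6 mice. The part of these in the changes of the members was not tested.

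**Figure D4:**
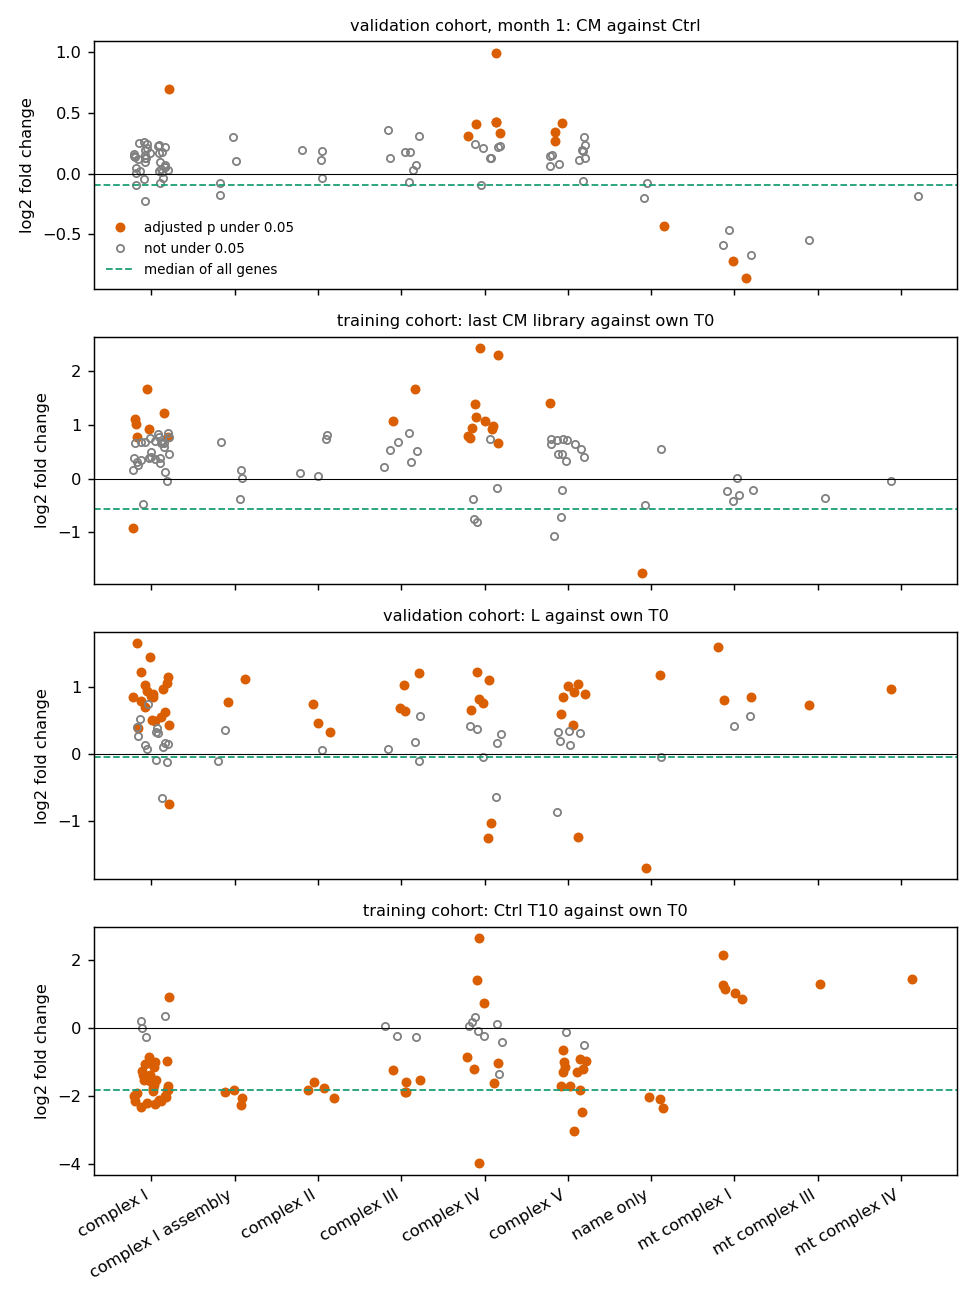
Log2 fold change of every member (vertical axes) grouped by complex or role (horizontal axis) for validation CM against Ctrl at T1, training last library against T0, validation L against T0 and training Ctrl T10 against T0. Orange points passed an adjusted p under 0.05, hollow points did not, and the dashed line is the median of all genes. Nuclear members lie mostly above the dashed line in each panel, 80 of 86 in training last libraries and 69 of 82 at validation L.

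Last training libraries and validation L libraries share no sample, and 82 nuclear members were tested in both. Of these 20 rose in last training libraries and 42 at L, and 10 rose in both, which is 50% of the training and 23.8% of the validation genes. Since 51.2% of the 82 rose at L, the share of the training genes that rose there was at the background. The shared genes were Atp5b, Cox5b, Cox6a1, Cox6b1, Cox6c, Cox7b, Ndufa1, Ndufb8, Ndufb9 and Uqcr11, named only because they were called in both. Atp5sl fell in both, 1 of 2 and of 5 genes that fell. Of the 10 members higher at validation T1, 8 also rose in the last training libraries, 80% of those 10 and 40% of the 20. At L of the same cohort 4 of the 10 rose, 40% of those 10, beside 51.2% of all 82, and 9.52% of the 42.

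Promoters are shown because nuclear respiratory genes are known to be driven by the factors NRF1, GABP (an ETS factor) and YY1. Of 72 members with a promoter window in RefSeq (GRCm38.p6), the motif GCATGCGC of NRF1 was in 11 windows (15.3%), against 3.05% of all 27025 windows. The ETS core CCGGAAG was in 17 (23.6%, against 9.93%) and the YY1 core AAGATGGCG in 8 (11.1%, against 1.64%). Both strands of 300 bases, from 250 before to 50 after the start, were read, and the letters AAG that end the ETS core can also begin the YY1 core. Of the 10 shared genes 8 had a window, and 3 of these windows held a motif. Any of the 3 motifs was in 30 of the 72 member windows (41.7%) and in 13.6% of all windows. The shared genes thus held motifs no more often than members in general. The 150 bases before the start follow 5′ to 3′ on the gene's strand for those 3 and for Cox5b, a shared gene with no motif in the window; capitals mark the ETS core or its reverse complement.
Cox6a1, chr5:115348959-115349108, minus strand: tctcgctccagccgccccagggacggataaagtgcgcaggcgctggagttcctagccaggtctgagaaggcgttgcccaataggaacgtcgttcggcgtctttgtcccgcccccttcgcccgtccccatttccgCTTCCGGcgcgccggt
Cox6b1, chr7:30626115-30626264, minus strand: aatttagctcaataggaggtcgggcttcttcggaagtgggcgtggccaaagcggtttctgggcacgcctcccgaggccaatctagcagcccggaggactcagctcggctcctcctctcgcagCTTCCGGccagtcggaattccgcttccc
Uqcr11, chr10:80406822-80406971, minus strand: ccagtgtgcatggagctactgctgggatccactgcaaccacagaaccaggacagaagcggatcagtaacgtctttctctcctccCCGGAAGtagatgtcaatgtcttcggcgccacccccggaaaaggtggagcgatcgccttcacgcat
Cox5b, chr1:36691337-36691486, plus strand: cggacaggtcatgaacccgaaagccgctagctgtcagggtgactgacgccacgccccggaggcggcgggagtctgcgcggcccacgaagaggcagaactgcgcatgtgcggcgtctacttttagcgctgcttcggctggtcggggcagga

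The ETS core began 16 bases before the start in Cox6a1, 28 before it in Cox6b1 and 66 before it in Uqcr11. Cox6a1 and Uqcr11 also held the NRF1 core, which lies outside the 150 bases printed. These matches describe the letters and not binding.

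In training Ctrl mice the mitochondrial members took a larger part of the library at T10 than at T0, while the nuclear members were lower about as often as all genes. T10 is a single bleed of each mouse, and the months between T1 and T10 were not tested against T0. The Ctrl nuclear share at T6, given above, was already below its T0 level, so T10 does not date the change. At T10 against T0 of the same 7 mice, 65 of 86 nuclear members (75.6%) were lower and 4 higher, while 72.7% of all genes were lower and 10.5% higher, and 7 of 7 mitochondrial members were higher. The median change was -1.44 over nuclear members, 1.29 over mitochondrial members and -1.81 over all genes. Lower were 31 of 36 members in complex I, 4 of 4 in complex II, 5 of 8 in complex III, 5 of 16 in complex IV and 13 of 15 in complex V. Under median-ratio scaling the median of all genes was -0.16, and 37 nuclear members were higher and 9 lower. The direction of the nuclear genes in Ctrl mice therefore depends on the scaling. The share of all genes called under median-ratio scaling is not given here, so these counts have no background. The mitochondrial genes were higher under both scalings. Mitochondrial ribosomal RNA, which library preparation is meant to deplete, moved too, with 0.00909 to 0.270% of reads at T10 and 0.00250 to 0.0473% at T0, and 5 of 7 T10 libraries lay above every T0 library. All 8 B cell, 8 T cell and 6 NK markers fell at T10, as did 7 of 8 neutrophil and 5 of 6 monocyte markers, with summed T cell markers of 62.8 to 301 CPM at T10 and 487 to 735 CPM at T0. The part of either in the changes of the members was not tested.

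The 4 nuclear members that rose in Ctrl mice were Cox6b2 by 2.65 ± 0.32, Cox5a by 1.44, Ndufa1 by 0.91 and Ndufa4 by 0.75. Cox6b2 had 1.96, 3.75 and 4.01 log2 CPM as lowest, median and highest at T10 and 0.26, 0.84 and 1.63 at T0, without overlap. Cox5a had 5.52, 6.53 and 6.91 at T10 and 4.62, 4.96 and 5.54 at T0. All 4 were also higher in validation CM mice at T1, 40% of the 10 there and 100% of the 4 here. The 4 globin genes and 8 of 8 erythroid and 8 of 8 platelet markers rose with them at T10, with summed erythroid markers of 3445 to 29374 CPM at T10 and 449 to 1507 CPM at T0. The part of red cell RNA in these 4 genes was not tested.

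Atp5sl fell by 2.33 in Ctrl mice on the log2 scale, Ndufc1 fell by 2.30, Ndufaf1 fell by 2.24, Ndufb2 fell by 2.22, Ndufa9 fell by 2.19 and Ndufb5 fell by 2.15, the largest falls among members with a mean log2 CPM above 1. Sdhb fell by 2.04 and Atp5a1 by 1.29, and Atp5b changed by -0.10 and did not pass. Atp5b was 1.61 and Atp5a1 0.42 under median-ratio scaling. Of the mitochondrial genes mt-Nd6 rose most, by 2.17, to 6.92, 7.91 and 10.21 log2 CPM at T10 as lowest, median and highest, against 5.64, 5.77 and 6.06 at T0. mt-Co1 rose by 1.44, mt-Cytb by 1.31 and mt-Nd5 by 0.86. The call of mt-Nd5 was lost without Ctrl mouse 3346 or 3349 (adjusted p up to 0.0686).

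The change in CM mice differed from the change in Ctrl mice for most nuclear members. In a fit of last library minus T0 in CM mice against T10 minus T0 in Ctrl mice, 65 of 86 nuclear members were higher and 0 lower, while 33.7% of all genes were higher. For mitochondrial members 6 of 7 were lower, while 4.92% of all genes were lower. The median difference of changes was 1.90 over nuclear members, -1.42 over mitochondrial members and 0.95 over all genes. The comparison shares its libraries with both paired comparisons above, and the last CM libraries came from months 4 to 10.

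Among members with a mean log2 CPM above 1, Ndufa9 differed most, by 2.80 ± 0.60 on the log2 scale, as CM mice changed by 0.59 and Ctrl mice by -2.19. The low muscle isoforms Cox7a1 and Cox6a2 differed by 4.08 and 3.39. Cox5b differed by 2.60 ± 0.57, with a change of 1.08 in CM and -1.62 in Ctrl mice, and Ndufa12, Ndufb4, Ndufc2 and Ndufa8 by 2.67, 2.66, 2.55 and 2.54. All 4 complex II genes differed, from 1.89 for Sdha to 2.52 for Sdhc. Cox5a at -0.62 and Cox6b2 at -0.29 did not differ beyond the test. mt-Nd6 differed by -2.38 ± 0.51 (adjusted p = 0.0055) and mt-Nd1 by -1.001, which did not pass. The nuclear count was 41 and the mitochondrial count 1 without Ctrl mouse 3349, and the nuclear count was 36 under median-ratio scaling. The call of mt-Nd5 was also lost without CM mouse 3338, 3341 or 3370 or Ctrl mouse 3350, and mt-Nd4 without 3350.

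**Figure D5:**
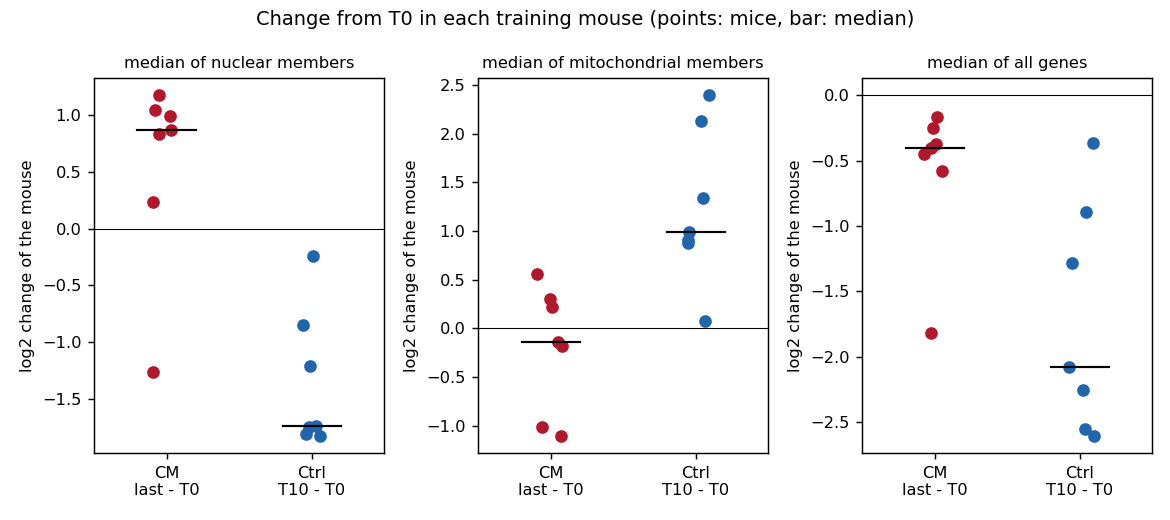
Change from T0 in each training mouse (log2, vertical axes), as the median over nuclear members, mitochondrial members and all genes, for CM mice (last library) left of Ctrl mice (T10) on the horizontal axis. Points are mice and bars are medians. In 6 of 7 CM mice the nuclear median is between 0.23 and 1.18, mouse 3368 is at -1.26, and the 7 Ctrl mice are between -1.83 and -0.24.

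Other genes of the pathway outside the rule were counted from pathway lists. In the citrate cycle, which feeds electrons to the chain, 10 of 13 genes rose at validation L, where 31.4% of all genes did, among them Idh3a by 1.46, Dlst by 1.32 and Cs by 1.27. In last training libraries 1 of 13 rose, beside 10.1% of all genes. Of the assembly factors of complexes I to V, 7 of 22 rose and 3 fell at L, a share of rises close to that of all genes, and 0 of 23 rose and 3 fell in last training libraries, where 35.9% of all genes fell. Nubpl, which inserts iron-sulfur clusters into complex I, fell by 1.22 and 1.56 in those comparisons, and Cycs, cytochrome c, fell by 0.85 and 1.03. In Ctrl mice at T10, 13 of 13 citrate cycle genes and 22 of 23 assembly factors fell, where 72.7% of all genes did. Their medians of -1.92 and -2.01 lay beside -1.81 over all genes.

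Regulators of these genes did not move as one group. Of all genes, 31.4% rose and 33% fell at validation L, and 10.1% rose and 35.9% fell in last training libraries. Of 8 regulators, Gabpa and Yy1 rose by 0.67 and 0.55 at validation L and 3 fell, including the coactivator Ppargc1a by 2.38 and Nrf1 by 0.34. In last training libraries 0 rose and 2 fell, Ppargc1a by 2.56 and Nrf1 by 0.76. Of 6 genes of mitochondrial transcription and RNA, Lrpprc, which stabilises mitochondrial mRNA, and Tfb1m rose by 0.70 and 0.65 at L, and 3 fell, among them the packaging factor Tfam by 0.50. None of the 6 passed in last training libraries. With only 8 and 6 genes, the counts in these lists are not set apart from the shares of all genes.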

How the data were processed

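The submitters' processing notes name STAR, GRCm38 and featureCounts (Subread), and edgeR for the training cohort. No versions or strand setting are given in the sources used here. The authors deposited log2 CPM, 1 table per cohort, kept to genes above 0.5 CPM (training) or 5 CPM (validation) in 2 samples by the table names. These log2 values were made with a prior of 0.25 reads, and whole reads were recovered for 100% of values (tolerance 0.01 reads). A 0 therefore lies at -6.52 or -6.30, and low values understate fold changes.

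All 18508 training and 13607 validation genes were fitted with limma 3.58.1 in R 4.3.3 (trend, Benjamini-Hochberg, two-sided), with sex as a covariate between arms and the mouse as a replicate block within mice. The pairing comes from mouse identifiers in the labels. Correlations of paired deviations were -0.17 to 0.23 (last against T0), -0.28 to 0.39 (Ctrl T10), -0.17 to 0.48 (Ctrl T1) and 0.03 to 0.26 (L). Alternatives were median-ratio scaling, a prior of 2 reads, mean log2 CPM above 1, voom, no covariate or block, each mouse left out and, added after seeing the data, totals without globin reads. On data simulated for training T1 with 18508 genes, 22% of 100 genes changed by 1 and 100% of 100 genes changed by 2 (log2) were recovered. RPKM used the longest GENCODE coding transcript of an older build. Members and lists were chosen with earlier results of these data known. Named were mitochondrial genes, Sdha to Sdhd, isoform groups, Atp5a1, Atp5b and up to 6 largest called changes each way with mean log2 CPM above 1. Hbb-bs and Hbb-bt were matched as Hbb-b1 and Hbb-b2. Counts of reads carry counting error only, and a 0 allows up to 3 reads.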

Additional observations from a re-analysis of the deposited data

Results flagged for a closer look

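The change of 65 nuclear members and 6 mitochondrial members differed between CM mice (to the last library) and Ctrl mice (to T10), by a test of the difference itself. The nuclear members were higher (75.6% of 86, beside 33.7% of all genes) and the mitochondrial lower (85.7% of 7, beside 4.92%). With each mouse left out, the counts ran from 41 to 74 and from 1 to 7. The nuclear count was also smaller under median-ratio scaling, as given above.

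Of 66 groups and measures with 4 to 10 libraries, 7 had a library far from the others, and chance flags about 1 in 20. In the training cohort, Ctrl mouse 3349 had a nuclear share of 0.339% of reads at T0, while the other 6 had 0.312 to 0.321%. Ctrl mouse 3339 had a mitochondrial share of 0.412% at T5, with 0.237 to 0.293% in the others, and of 1.30% at T7, with 0.307 to 0.609% in the others. Its globin share at T7 was 7.28%.

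In the validation cohort, CM mouse 2684 had a nuclear share of 0.782% at T4, while the others had 0.386 to 0.445%. CM mouse 2700, whose knock-in row was low, had a mitochondrial share of 0.899% at T4, and the others had 0.571 to 0.666%. Ctrl mouse 2692 had a nuclear share of 0.472% at T5, with 0.400 to 0.419% in the others. Ctrl mouse 2702 had 0.549% at T6, with 0.389 to 0.425% in the others.

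The weekly validation libraries entered no comparison. The highest nuclear share there was 0.972% in a CM library, and weekly Ctrl libraries had 0.409 to 0.471%.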

How the results depend on the processing

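Of 270 recomputed member counts without a left-out mouse, 247 stayed within 1.5 times of the reported value, and 429 of 460 with a mouse left out did. Most of the reported counts held no called member, so these totals say little about the counts that did. Voom, the prior of 2 reads and the fits with no replicate block moved none. Median-ratio scaling gave 1 nuclear call at training T1, 29 at validation T1 (with 1 mitochondrial), 71 for last training libraries and 36 for the difference of changes. Leaving globin reads out of the totals gave 2 nuclear calls at training T1 and 3 mitochondrial calls at L, 2 fewer than reported. A mean above 1 gave 1 nuclear call at training T1 and 2 at T2, and no sex covariate gave 1 at T1. One fit over months 0 to 6 with a replicate block gave, for nuclear members, 1, 0, 7 and 61 calls at training T1, T2, T4 and T6 and 3, 2 and 8 at validation T1 to T3. Mitochondrial calls there were 5 at training T6 and 1 at validation T1. With the preparation code as well, training T1, T2 and T6 gave 1, 0 and 55 nuclear calls and T6 gave 3 mitochondrial calls. No share of all genes is given beside the counts of these settings, so they are not read against a background. The cause of these shifts was not tested.

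With each mouse left out, nuclear counts ran from 0 to 3 at training T1, 2 to 5 at training T2, 2 to 21 at validation T1, 13 to 67 for last training libraries and 41 to 74 for the difference of changes. Mitochondrial counts ran from 1 to 4 at validation T1, 1 to 7 for the difference and 3 to 5 at L. No share of all genes is given beside these ranges. Of 1958 values of named genes, 1764 kept direction and side of the threshold, 148 lost the call, 24 gained it, 17 moved and 5 reversed. All 5 reversals were Ctrl T10 against T0 under median-ratio scaling: Cox4i1 0.86, Cox5b 0.089, Atp5a1 0.42, Atp5b 1.61 and Sdhd 0.12. Depth limits the low genes Cox6a2, Ndufa4l2 and Cox7a1, which had 0 reads in some libraries.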

Other observations

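In the validation cohort, 3 CM and 2 Ctrl mice were bled at weeks rather than months. In CM mouse 3131 the nuclear members took 0.356% of reads at week 20, 0.768% at week 24 and 0.972% at week 28. CM mouse 3130 had 0.535% at week 20, 0.824% at week 24 and 0.548% at week 25, and CM mouse 3200 had 0.511% at week 10, 0.832% at week 14 and 0.757% at week 18. Ctrl mouse 3127 had 0.471%, 0.438% and 0.409% at weeks 20, 24 and 28, and Ctrl mouse 3202 had 0.426%, 0.412% and 0.465% at weeks 10, 14 and 18. Kit was 3.35 to 11.2 log2 CPM in the weekly CM libraries and 1.02 to 2.13 in the weekly Ctrl libraries. In mouse 3130 the library with the highest Kit level, 11.2, was not the one with the highest nuclear share. The mitochondrial members took 0.268 to 0.539% of reads in weekly CM and 0.422 to 0.490% in weekly Ctrl libraries.

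By newer gene names 7 further nuclear genes match the rule, as subunits or as complex I assembly factors, and 6 of these were in the validation table. In Ctrl mice 6 of 7 were lower at T10, where 72.7% of all genes were. Between the changes of CM and Ctrl mice 5 of 7 were higher, beside 33.7% of all genes. At validation L 2 of 6 rose, close to the 31.4% of all genes. In last training libraries Atp5mpl rose by 0.83 (adjusted p = 0.0369) and Ndufa11b fell by 4.47 (adjusted p = 0.000267), both by limma.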
